A study of Mus musculus with 18 samples.

Results

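Oxidative phosphorylation is carried out by 5 protein complexes of the inner mitochondrial membrane, and the genes of their nuclear-encoded subunits are described here in the vestibular organ of Igf1 null and wild-type mice. A gene was taken when its symbol began with Ndufa, Ndufb, Ndufc, Ndufs or Ndufv (complex I), was Sdha to Sdhd (complex II), or began with Uqcr (complex III), Cox4 to Cox8 (complex IV) or Atp5 (complex V). Of the 19938 genes measured, 89 met this rule, each represented by the single-symbol probe set with the highest mean level. They comprised 41 genes of complex I, 4 of complex II, 8 of complex III, 19 of complex IV and 17 of complex V. By role, 81 were subunits or isoforms of subunits. The other 8 were 7 complex I assembly factors (Ndufaf1 to Ndufaf7), which are caught by the spelling of their names, and Cox7a2l, which joins complexes III and IV into larger assemblies. Ndufa4 is counted with complex IV, where its protein resides. Ndufb1, Ndufb4 and Cox7c were not analysed here.

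Complexes I and II pass electrons from NADH and succinate to ubiquinone, complex III hands them on to cytochrome c, and complex IV passes them to oxygen. Complexes I, III and IV pump protons as they do so, and complex V, the ATP synthase, uses the resulting gradient to make ATP. Several complex IV subunits come as pairs of genes, with one form made in most tissues and another made mainly in heart and skeletal muscle, in testis, or under low oxygen. Nuclear respiratory factors and PGC-1 family coactivators are known to drive many of these genes together. Hair cells, neurons, ion-transporting epithelium and muscle are all known to be rich in mitochondria.

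The study compared Igf1 -/- mice, which lack insulin-like growth factor 1, with Igf1+/+ mice of the same hybrid Mf1 and 129/sv background. Whole vestibular organs, the balance part of the inner ear, were taken shortly before birth (E18.5), on postnatal day 15 (P15) and on postnatal day 90 (P90), and hybridised to Affymetrix Mouse Gene 1.1 ST arrays. Each of the 6 combinations of genotype and age had 3 arrays, labelled as biological replicates. The animals were perfused with paraformaldehyde, and the labels give neither the deleted part of Igf1 nor the number of animals behind an array. The deposited log values have no stated base, so levels and differences are in log units, where a unit is 2.72-fold for natural logs and 2-fold for log2. Differences are given ± the standard error of the limma fit, and "called" means an adjusted p under 0.05 over all genes. Shares of all genes called are those of the fit on quantile-normalised values. Counts from other fits have no such share beside them and cannot be read as particular to the set.

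Igf1 itself had levels of 6.4, 6.88 and 6.51 in the null arrays and 7.02, 7.07 and 6.98 in the wild-type arrays before birth. By P15 they were 5.54, 5.69 and 5.42 against 5.87, 6.11 and 5.89, and by P90 5.43, 5.51 and 5.31 against 5.63, 5.39 and 5.56. The genotypes did not overlap at E18.5 and P15, and the differences were -0.43 ± 0.12 (adjusted p = 0.16), -0.41 ± 0.12 (0.48) and -0.11 ± 0.12 (0.76). Markers of the labelled tissue were each judged by their mean in the group where they were brightest. By this rule the 15 measured hair cell genes, 11 supporting cell genes and 9 otoconia genes all lay above 3.4. The dimmest 20% of genes did not reach that level in any group. A marker that passed was thus present in some group, and not necessarily at every age. A list of 27 skeletal muscle genes lay above 3.4 by the same rule, with array means between 5.62 and 7.01. E18.5 null arrays 2 and 3 and P90 wild-type arrays 1 and 2 stood apart from the other arrays of their groups on the third principal component, which held 5.46% of the variance, so main counts are also given without these 4 arrays. The sex makeup of the arrays differed, and the labels do not give it. Xist, made from the inactive X chromosome, was at 7.42 to 7.91 in P90 null and 1.86 to 3.33 in P90 wild type, and overlapped between genotypes at E18.5 and P15. The mean of 3 Y-linked genes was 2 in P90 null array 1 and 3.29 in P15 null array 2, and 5.23 or higher in the rest. Xist (7.31 to 8.01) and the Y-linked mean (5.23 to 5.95) were both high in every E18.5 array. The same held for P90 null arrays 2 and 3, with Xist at 7.43 and 7.42. RNA of both sexes in an array takes more than 1 animal. In tissue of mixed cells, fewer cells of a type and less RNA per cell cannot be told apart.

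As a group, the 89 genes were low in the wild-type embryo and higher after birth. After each gene was centred on its mean over the 18 arrays, the mean over all 89 genes was -0.2 ± 0.05 (SD, n = 3) in E18.5 wild type, 0.05 ± 0.05 in P15 wild type and 0.11 ± 0.05 in P90 wild type. In the null groups it was -0.07 ± 0.11, 0 ± 0.06 and 0.11 ± 0.09 at the same ages. The E18.5 wild-type arrays, at -0.24 to -0.14, overlapped the E18.5 null arrays, at -0.19 to 0.04, and lay below all postnatal arrays. For 59 of the 89 genes the lowest of the 6 group means was that of E18.5 wild type, whereas this group held the lowest mean for 18.3% of all genes. The highest mean fell in P90 null for 31 of the 89 and in P90 wild type for 24, where 16.1% and 17.7% of all genes had theirs. Markers of several cell types moved over the same ages. In wild type the mean of 12 neuron genes went from 4.79 to 4.97 at E18.5 to 6.14 to 6.32 at P15, that of 5 myelin genes from 4.38 to 4.42 to 6.01 to 6.38, and that of 6 erythroid genes from 3.83 to 4.02 to 6.03 to 6.61. For 9 B cell genes the range went from 3.07 to 3.21 to 5.49 to 5.74, and for 11 bone and cartilage genes from 7.35 to 7.43 down to 6.09 to 6.63. The 15 hair cell genes also went down, from 4.4 to 4.52 to 3.76 to 3.99. For 9 otoconia genes the fall was from 5.9 to 6.06 to 4.69 to 4.91. For 11 supporting cell genes it was from 5.42 to 5.5 to 5.09 to 5.23. In null the neuron genes went from 4.65 to 5.64 to 6.18 to 6.39. The part of these lists in the levels of the set was not tested.

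**Figure D1:**
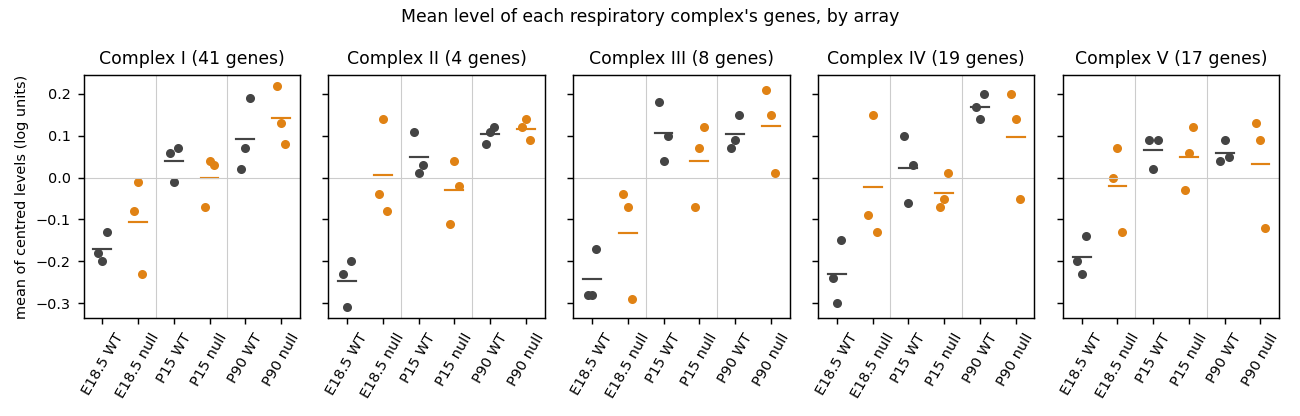
Mean centred level (log units, y axis) of the genes of each respiratory complex in each array (points), by genotype and age (x axis). Dark points are wild type (WT), orange points Igf1 null, and bars are group means. The E18.5 wild-type arrays sit at or below -0.13 for every complex, and all P90 wild-type arrays sit at or above 0.02.

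The change from E18.5 to P15 in wild type asks how the set behaves as the organ matures around birth. Here 47 of the 89 genes were called higher and 2 lower, where 19.7% of all genes were called higher and 21.9% lower. The median difference over the 89 genes was 0.29, against -0.05 over all genes. The groups did not overlap in the higher direction for 58 of the 89 (65.2%, against 26% of all genes), and in the lower direction for 5 (5.62%, against 31.7%). Genes of all 5 complexes rose: 18 of 41 genes of complex I, 2 of 4 of complex II, 6 of 8 of complex III, 11 of 19 of complex IV and 10 of 17 of complex V were called higher. Leaving out 1 array gave 41 to 49 called genes, and leaving out the 4 arrays named above gave 50 higher and 2 lower. With array medians subtracted 21 were called higher and 3 lower, with a median of 0.18, and Sdha (0.25, adjusted p = 0.052), Atp5b (0.21, 0.13), Cox4i1 (0.29, 0.075), Ndufa4 (0.34, 0.068) and Atp5g3 (0.26, 0.058) were then not called. With the mean of the skeletal muscle list as a covariate 27 were called higher and 2 lower, and with the Y-linked mean 48 and 2.

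Within complex I, 5 of the 6 measured core subunits rose, most of which hold the flavin or iron-sulfur centres that pass electrons on. Ndufs7, the iron-sulfur subunit next to the ubiquinone site, had levels of 6.07, 6.06 and 6.16 at E18.5 and 6.78, 6.55 and 6.7 at P15. The ages did not overlap, and the difference of 0.58 ± 0.07 (adjusted p = 6.6e-06) was the one with the smallest p among the genes that rose. Ndufs1, the largest iron-sulfur subunit, rose by 0.47 ± 0.09, Ndufv1, which takes electrons from NADH, by 0.29 ± 0.08, Ndufs3 by 0.27 ± 0.07 and Ndufs8 by 0.26 ± 0.1. Ndufv2 was not called, at 0.16 ± 0.1 (adjusted p = 0.21).

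Accessory subunits of complex I, which surround the core and are needed for its assembly and stability, were more mixed. Of 28 measured, 11 rose, and their differences in wild type ran from -0.18 to 0.5. Ndufa9 rose by 0.5 ± 0.1, Ndufb9 by 0.49 ± 0.1, Ndufb8 by 0.42 ± 0.08 and Ndufs4, whose loss causes Leigh syndrome, by 0.38 ± 0.09. Ndufa6 (-0.18 ± 0.09) and Ndufa7 (-0.18 ± 0.1) had the lowest values and were not called. Of the 7 assembly factors, Ndufaf3 and Ndufaf4 rose, by 0.3 ± 0.08 and 0.21 ± 0.07.

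The succinate dehydrogenase genes split within complex II. Sdha, the flavoprotein that oxidises succinate, had 6.98, 6.98 and 7.01 at E18.5 and 7.48, 7.34 and 7.42 at P15 in wild type. All P15 arrays lay above all E18.5 arrays, and Sdha rose by 0.43 ± 0.06 (adjusted p = 6.1e-05). Sdhc, a membrane anchor, rose by 0.39 ± 0.08 (adjusted p = 0.0012). Sdhb, the iron-sulfur subunit, and Sdhd, the other anchor, had 0.21 ± 0.09 and 0.16 ± 0.1 and were not called.

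In complex III, the 2 core proteins Uqcrc1 (0.56 ± 0.1) and Uqcrc2 (0.28 ± 0.08), the Rieske iron-sulfur protein Uqcrfs1 (0.34 ± 0.09) and the small subunits Uqcrq (0.57 ± 0.15), Uqcrb (0.4 ± 0.14) and Uqcr11 (0.32 ± 0.08) rose. The value of Uqcrb is from the brightest of 3 probe sets, and the others had 0.03 and 0.42. The hinge protein gene Uqcrh had 0.03 ± 0.08 and Uqcr10 had 0.3 ± 0.16, with adjusted p of 0.78 and 0.14.

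Complex IV held both the largest rises and the only falls of the set in wild type. Of its 10 measured ubiquitous subunits, 9 rose, with a median of 0.5 over the 10. Cox5b, a zinc-binding subunit, had 6.39, 6.42 and 6.47 at E18.5 and 7.09, 7.08 and 6.96 at P15 in wild type, with no overlap and a rise of 0.62 ± 0.09 (adjusted p = 5.2e-05). Cox5a rose most among them, by 0.87 ± 0.17, from 5.19, 5.11 and 5.25 to 6.16, 6.03 and 5.98. The next were Cox6a1 (0.56 ± 0.1), Cox8a (0.55 ± 0.12), Ndufa4 (0.51 ± 0.11), Cox6c (0.5 ± 0.08) and Cox7a2 (0.49 ± 0.1). Cox4i1 had 0.42 ± 0.09 and Cox6b1 0.39 ± 0.11. The less bright probe sets of Cox5b and Cox6c had 0.42 and 0.31. Cox7b, whose gene lies on the X chromosome, was the exception at 0.25 ± 0.1 (adjusted p = 0.054), though its wild-type arrays of both ages did not overlap either. It was called with the Y-linked mean as a covariate (0.26, adjusted p = 0.041). These values are from the brighter of 2 probe sets, and the other had 0.13. The chromosome is that of the gene, and where each probe set lies was not checked.

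The synthase of complex V rose in its catalytic head and in parts of its membrane sector. Atp5b, the catalytic beta subunit, had 7.53, 7.48 and 7.6 at E18.5 and 8.05, 7.96 and 8.04 at P15 in wild type and rose by 0.48 ± 0.07 (adjusted p = 8e-05). The other head subunits that rose were alpha (Atp5a1, 0.35 ± 0.06), gamma (Atp5c1, 0.24 ± 0.07) and delta (Atp5d, 0.31 ± 0.07), while epsilon (Atp5e) had 0.02 ± 0.1. In the membrane sector and stalk, 6 of 12 rose, among them Atp5h and Atp5pb of the peripheral stalk (0.36 ± 0.08 and 0.42 ± 0.11) and Atp5o, which ties the stalk to the head (0.27 ± 0.08). The less bright probe sets had 0.21 and -0.05 for Atp5h and 0.17 for Atp5pb.

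The rotor ring of the synthase is built from 1 protein encoded by 3 genes, of which 1 was called higher in wild type by its brightest probe set. Atp5g3 rose from 6.98, 6.94 and 7.13 to 7.53, 7.48 and 7.38 in wild type (0.45 ± 0.08, adjusted p = 0.00023). Atp5g1 had 5.33, 5.26 and 5.26 in wild-type arrays of E18.5, 5.44, 5.36 and 5.65 in those of P15 and 5.99, 6.18 and 5.55 in those of P90, and neither step was called. These values are from the brighter of 2 Atp5g1 probe sets, with mean levels of 5.58 and 5.3. From E18.5 to P15 in wild type the brighter one had 0.2 and the other 0.69, so whether Atp5g1 rose depends on the probe set. Atp5g2 scattered between arrays of a group more than any other member, for example from 3.42 to 4.82 in P90 null, and its difference of 0.03 ± 0.36 has a standard error several times that of most members. Its 3 probe sets disagreed in sign at E18.5, and with their mean in place of the brightest one its wild-type change from E18.5 to P15 turned to -0.27 (adjusted p = 0.04) and that in null was -0.45 (0.0019). Retrocopies of such short genes are known to be frequent, and how their signal divides between probe sets was not tested.

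The tissue-restricted isoforms of complex IV moved in opposite directions in wild type. Cox8b, the heart and skeletal muscle form of subunit 8, had 4.08, 4.46 and 4.49 at E18.5 and 5.72, 4.9 and 5.54 at P15, a rise of 1.04 ± 0.26 (adjusted p = 0.0046). Cox7a1, the muscle form of subunit 7a, had 4.56, 4.48 and 4.64 before birth and 5.8, 5.22 and 5.62 at P15, a rise of 0.99 ± 0.24 (adjusted p = 0.0036). For both genes P15 lay above E18.5 in every wild-type array, and P15 array 2 was the lowest of its group. Cox6a2, the muscle form of subunit 6a, had 4.52, 4.81 and 4.92 before birth and 5.25, 4.91 and 5.15 at P15, and was not called at 0.36 ± 0.15 (adjusted p = 0.065). It was called without E18.5 wild-type array 3 (0.44, adjusted p = 0.046) or P15 wild-type array 2 (0.45, 0.038), and with the values as deposited (0.63, 0.024).

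The 2 genes that fell in wild type are both known as forms favoured under low oxygen. Ndufa4l2, a paralogue of Ndufa4, fell from 5.69, 5.53 and 5.65 at E18.5 to 3.68, 3.96 and 3.27 at P15, a difference of -1.98 ± 0.19 (adjusted p = 5.9e-07) and the largest of all members in size. Cox4i2, the lung and hypoxia form of subunit 4, fell from 4.93, 4.86 and 4.85 to 4.24, 4.19 and 4.26, a difference of -0.65 ± 0.08 (adjusted p = 9e-06). Their ubiquitous partners Ndufa4 and Cox4i1 rose over the same step, from 6.87, 6.9 and 6.98 to 7.41, 7.31 and 7.56 and from 6.66, 6.53 and 6.6 to 7.16, 6.88 and 7.02.

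In null arrays both genes fell as well. Ndufa4l2 had 5.1, 5.13 and 4.94 at E18.5 and 3.66, 3.81 and 3.7 at P15, a difference of -1.34 ± 0.19 (adjusted p = 3.9e-05). At E18.5 its null arrays all lay below the wild-type arrays, by -0.56 ± 0.19, without passing the test (adjusted p = 0.26). Cox4i2 fell from 4.66, 4.75 and 4.98 to 4.25, 4.11 and 4.22 in null (-0.61 ± 0.08, adjusted p = 2.1e-05). Without normalisation between arrays the null fall of Cox4i2 was -0.3 (adjusted p = 0.13).

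The ubiquitous partners of the muscle forms followed the rest of the set. In wild type Cox6a1 had 6.07, 6.15 and 6.19 before birth, then 6.76, 6.68 and 6.66 on P15 and later 6.47, 6.56 and 6.7 on P90. Cox7a2 had 5.71, 5.78 and 5.81 before birth, 6.3, 6.21 and 6.26 on P15 and 5.95, 6.24 and 6.41 on P90. Cox8a had 5.86, 5.62 and 5.9 before birth, 6.44, 6.2 and 6.38 on P15 and 6.62, 6.72 and 6.37 on P90. In each of the 3 genes the wild-type arrays of P15 and P90 overlapped and all lay above those of E18.5.

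Cox6b2, a testis form, had 4.09, 3.94 and 4.25 in E18.5 wild type and 4.17, 4.29 and 4.26 in P15 wild type, while its partner Cox6b1 went from 6.21, 6.06 and 6.31 to 6.7, 6.52 and 6.54. Cox7b2, the testis form of subunit 7b, was the 1 member whose highest group mean lay below the level of the dimmest genes. It was at 2.24 to 2.64 in E18.5 wild type and 2.17 to 2.55 in P15 wild type. Cox8c, the testis form of subunit 8, lay near that level, at 3.54, 3.37 and 3.48 before birth and 3.48, 3.34 and 3.38 at P15. For these 3 isoforms none of the wild-type differences between E18.5 and P15 was called.

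**Figure D2:**
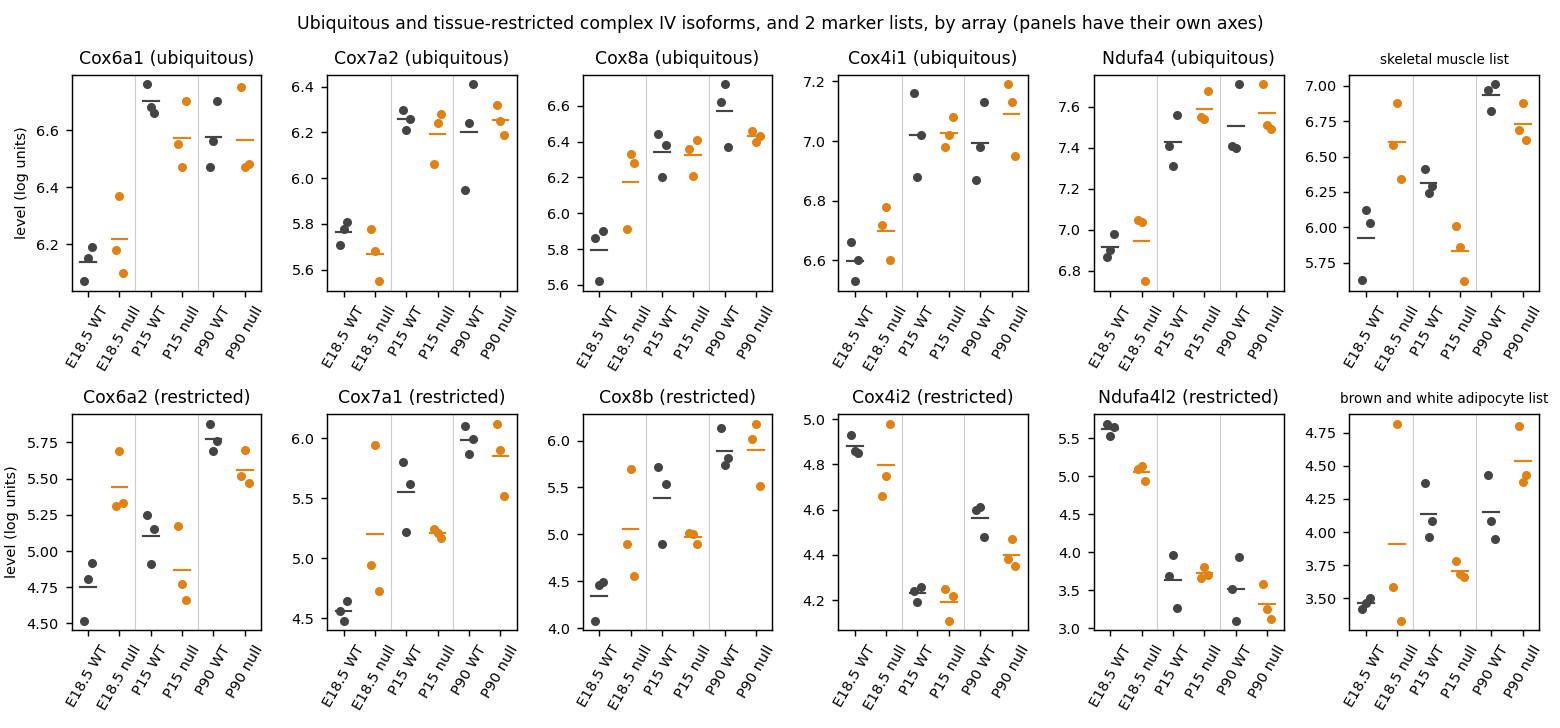
Level (log units, y axis, each panel with its own range) of 5 ubiquitous complex IV genes (top) and their tissue-restricted partners (bottom) in every array, with the mean of the skeletal muscle and adipocyte marker lists at the right. Dark points are wild type (WT), orange points Igf1 null, bars are group means. Cox6a2, Cox7a1, Cox8b and the muscle list have their highest group means at P90, and Ndufa4l2 and Cox4i2 at E18.5.

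The start regions of the set are known to carry motifs of shared regulators, and 4 are shown. All 4 are of genes called higher in wild type from E18.5 to P15, and no gene that fell is shown. Of the 89 genes, 73 matched a promoter window in RefSeq (GRCm38.p6), from 250 bases before to 50 bases after the annotated start. Capitals mark matches on either strand to the NRF1 motif (GCGCA, any base, then GCGC), to CCGGAAG, that of the GABP family, or to CAGCTG, an E-box bound by muscle regulators among others. Cox6a1 and its window from chr5:115348959-115349128, and Sdha from chr13:74350241-74350350, both on the minus strand, are ubiquitous genes that rose in wild type. Cox8b from chr7:140900447-140900556 on the minus strand and Cox7a1 from chr7:30184061-30184170 on the plus strand are the muscle forms. Each run ends 1 base before the annotated start and reads from 5′ to 3′.
Cox6a1: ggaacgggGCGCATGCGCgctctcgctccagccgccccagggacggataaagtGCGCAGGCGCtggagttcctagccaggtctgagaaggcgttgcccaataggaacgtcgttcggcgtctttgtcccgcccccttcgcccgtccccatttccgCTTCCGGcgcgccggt
Sdha: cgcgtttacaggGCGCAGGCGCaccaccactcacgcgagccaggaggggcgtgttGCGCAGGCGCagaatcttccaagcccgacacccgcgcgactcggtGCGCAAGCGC
Cox8b: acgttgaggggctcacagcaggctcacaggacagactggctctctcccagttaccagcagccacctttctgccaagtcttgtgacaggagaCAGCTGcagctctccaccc
Cox7a1: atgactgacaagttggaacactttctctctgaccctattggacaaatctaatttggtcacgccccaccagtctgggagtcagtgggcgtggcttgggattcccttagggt

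The NRF1 motif was present in the windows of 18 of the 73 genes (24.7%), against 5.19% of 27025 genes with a window. It occurred at 162 and 117 bases before the start of Cox6a1 and at 98, 55 and 10 bases before that of Sdha. The GABP motif was present in 18 of 73 (24.7%), against 9.93% of all, and lay 16 bases before the start of Cox6a1. The E-box was present in 6 of 73 (8.22%), against 18.3% of all, and lay 19 bases before the start of Cox8b. Among the 37 of these genes called higher in wild type from E18.5 to P15, 11 held the NRF1 motif (29.7%), as did 7 of the other 36 (19.4%). For the GABP motif these shares were 24.3% and 25%. In the stretches shown, neither Cox8b nor Cox7a1 has a match to the NRF1 or GABP letters. The windows of all genes were not matched for base composition, and a match describes the letters and not a bound site.

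In Igf1 null organs fewer genes of the set were called over the same step. From E18.5 to P15, 17 of the 89 genes were called higher and 4 lower in null, where 20.3% of all genes were called higher and 20.5% lower, so the share of members called higher was near that of all genes. The median over the 89 genes was 0.09, against -0.04 over all genes. By complex, 4 of 41 genes of complex I, 1 of 4 of complex II, 2 of 8 of complex III, 6 of 19 of complex IV and 4 of 17 of complex V were called higher. Leaving out 1 array gave 15 to 26 called genes, with a median of 0.04 without E18.5 null array 3 and 0.16 without E18.5 null array 2. Without the 4 arrays 8 were called higher and 2 lower, with E18.5 null array 1 alone in its group and its spread taken from the other groups.

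Ubiquitous complex IV subunits were 6 of the 17 genes called higher in null. The largest difference in null was 0.65 in complex IV, and 0.58 in both complex I and complex III. Ndufa4 rose from 7.05, 7.04 and 6.75 to 7.55, 7.54 and 7.68 (0.65 ± 0.11, adjusted p = 0.00015). Cox7a2 rose from 5.78, 5.68 and 5.55 to 6.06, 6.24 and 6.28 (0.52 ± 0.1, adjusted p = 0.00072). Cox5a (0.54 ± 0.17), Cox6c (0.39 ± 0.08), Cox6a1 (0.36 ± 0.1) and Cox4i1 (0.33 ± 0.09) rose too, while Cox5b had 0.2 ± 0.09, Cox8a 0.15 ± 0.12, Cox6b1 0.09 ± 0.11 and Cox7b -0.12 ± 0.1. In the other complexes, the accessory complex I subunit Ndufs5 rose from 6.13, 6.05 and 5.97 to 6.44, 6.47 and 6.51 (0.42 ± 0.07, adjusted p = 0.00017) and the stalk subunit Atp5h from 7.18, 7.14 and 7.02 to 7.42, 7.53 and 7.48 (0.36 ± 0.08, adjusted p = 0.0016). None of the 6 core subunits of complex I was called in null, and their differences ran from -0.02 to 0.2. With the mean of its 3 probe sets Atp5h had 0.03, and with array medians subtracted 0.26 (adjusted p = 0.13).

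None of the muscle forms was called higher over this step in null. Cox8b had 4.9, 5.7 and 4.56 at E18.5 and 5.01, 5 and 4.9 at P15 (-0.08 ± 0.26), and Cox7a1 had 4.94, 5.94 and 4.73 before birth and 5.24, 5.21 and 5.17 after (0 ± 0.24). Cox6a2 fell from 5.31, 5.69 and 5.33 to 5.17, 4.77 and 4.66 (-0.58 ± 0.15, adjusted p = 0.0055). Cox8c was also called lower, from 3.54, 4.33 and 4.1 to 3.33, 3.46 and 3.66 (-0.51 ± 0.19, adjusted p = 0.04), a call lost without E18.5 null array 2 or 3 or P15 null array 1 or 2 (-0.34 to -0.5), and without the 4 arrays (-0.06, adjusted p = 0.82). Without these 4 arrays the fall of Cox6a2 was -0.44 (adjusted p = 0.15), and with the values as deposited -0.26 (0.35). In E18.5 null array 2, Cox7a1, Cox8b and Cox8c were each at their highest of that age, and Ucp1, the uncoupling protein of brown fat, was at 6.47 there and at 2.25 to 2.79 in the rest of that age. Brown fat is known to make Cox7a1 and Cox8b as well. Ucp1 was also at 4.02 to 5.48 in P15 wild type and 2.96 to 3.18 in P15 null, and the list of 11 adipocyte genes, 9 of them above the level of the dimmest genes, had array means of 3.33 to 4.82 in E18.5 null, 3.42 to 3.5 in E18.5 wild type, 3.96 to 4.37 in P15 wild type and 3.66 to 3.78 in P15 null. The part of fat tissue in these levels was not tested.

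The skeletal muscle list moved with these isoforms and with genotype. Its array means were 5.63 to 6.12 in E18.5 wild type and 6.34 to 6.88 in E18.5 null, then 6.24 to 6.41 in P15 wild type and 5.62 to 6.01 in P15 null. Within each genotype these ages did not overlap, nor did the genotypes within each age. A fit with this mean as a covariate can thus tell it from group only by the spread within groups. With the muscle mean as a covariate, the change of Cox6a2 in null was 0.08 and that of Cox8b 1.01, and in wild type Cox7a1 (0.59, adjusted p = 0.087), Cox8b (0.49, adjusted p = 0.11) and Cox6b1 (0.35, adjusted p = 0.061) were no longer called. In the same fit the median over the 89 genes was 0.25 in wild type and 0.2 in null, with 27 higher and 2 lower called in wild type and 10 higher and 2 lower in null. Ndufa4l2 kept its fall there, at -2.05 in wild type and -1.2 in null.

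Of the 47 genes called higher in wild type, 16 (34%) were also called in null, and they made up 94.1% of the 17 called there. Ndufaf5, an assembly factor, was the exception, called in null alone (0.51 ± 0.14 against 0.23 ± 0.14 in wild type). For 69 of the 89 genes the signed difference was higher in wild type than in null, as it was for 8967 of all 19938 genes. The interaction term, which tests the difference between both changes, called 0 of the 89 genes, where 0.015% of all genes were called higher and 0.13% lower, and in the limma fit 1 was higher and 19 lower at an unadjusted p under 0.05, where 4.47% and 4.04% of all genes were. The smallest adjusted p was 0.08, for Sdhc (-0.56 ± 0.12). Next came Cox6a2 (-0.93 ± 0.21, adjusted p = 0.1), Ndufs7 (-0.43 ± 0.1, adjusted p = 0.11) and Cox5b (-0.42 ± 0.13, adjusted p = 0.33). Without P15 null array 1, Cox6a2 was called at -1.08 (adjusted p = 0.037). With the muscle mean as a covariate the interaction of Cox6a2 was 0.06 and that of Sdhc -0.56.

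**Figure D3:**
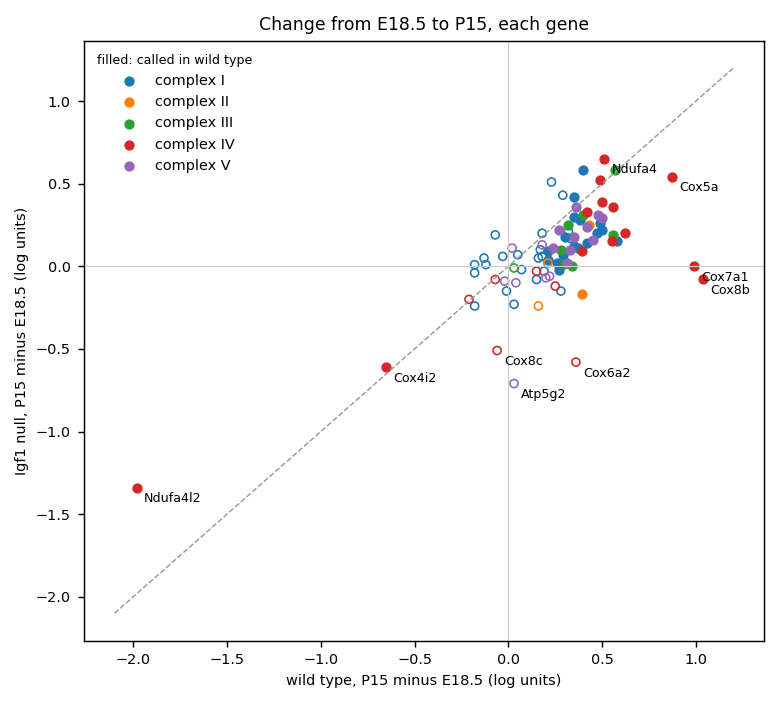
Difference between P15 and E18.5 (log units) of each of the 89 genes in wild type (x axis) and in Igf1 null (y axis), coloured by complex. Filled points were called in wild type, and the dashed line marks equal change. For 69 of the 89 genes the point lies below the dashed line, and Cox7a1 and Cox8b lie farthest to the right.

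Between P15 and P90 the direction of the set depended on the scaling. In wild type 3 of the 89 genes were called higher and 1 lower, where 8.08% of all genes were called higher and 9.78% lower, with a median of 0.04. With array medians subtracted 4 were called higher and 27 lower, with a median of -0.22 against -0.08 over all genes. The share of all genes called in that fit is not given, so the count of 27 has no background beside it. Ndufv1 rose from 6.44, 6.34 and 6.4 to 6.76, 6.75 and 6.83 (0.39 ± 0.08, adjusted p = 0.0057), Cox6a2 from 5.25, 4.91 and 5.15 to 5.88, 5.69 and 5.76 (0.67 ± 0.15, adjusted p = 0.0079) and Cox4i2 from 4.24, 4.19 and 4.26 to 4.6, 4.61 and 4.48 (0.33 ± 0.08, adjusted p = 0.013). Atp5o fell from 5.98, 5.87 and 5.89 to 5.59, 5.63 and 5.7 (-0.28 ± 0.08, adjusted p = 0.031). The number called was 2 without P15 wild-type array 2 or P90 wild-type array 2, 7 without P90 wild-type array 3 and 1 without the 4 arrays. Atp5o was called in 1 of the 6 fits that left out an array of either group, and Cox4i2 was lost without P15 wild-type array 2 or P90 wild-type array 2. The median was 0.01 without P90 wild-type array 3 and 0.07 without P90 wild-type array 1.

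In null 6 genes were called higher and 0 lower over that step, where 6.12% of all genes were called higher and 6.83% lower, with a median of 0.09. The median was -0.08 with array medians subtracted (2 called) and 0.33 with the values as deposited (18 called). In the limma fit 19 were higher and 1 lower at an unadjusted p under 0.05, where 13.1% and 12.6% of all genes were. Ndufs7 rose from 6.48, 6.46 and 6.51 to 6.95, 6.89 and 6.92 (0.44 ± 0.07, adjusted p = 0.00098) and Ndufv1 from 6.36, 6.34 and 6.39 to 6.69, 6.81 and 6.78 (0.4 ± 0.08, adjusted p = 0.0044). Sdha rose from 7.28, 7.38 and 7.31 to 7.56, 7.64 and 7.62 (0.28 ± 0.06, adjusted p = 0.0096). The muscle form Cox6a2 rose from 5.17, 4.77 and 4.66 to 5.52, 5.7 and 5.47 (0.7 ± 0.15, adjusted p = 0.0062), as did Cox8b, from 5.01, 5 and 4.9 to 6.02, 6.18 and 5.51 (0.93 ± 0.26, adjusted p = 0.03), and the assembly factor Ndufaf4 (0.24 ± 0.07). The call of Cox8b was lost in 5 of the 6 fits that left out an array, with 0.8 to 0.95. The muscle list was at 6.62 to 6.88 in P90 null and 6.82 to 7.01 in P90 wild type, above both P15 groups. With it as a covariate 0 members were called in either genotype, in a fit that can tell it from age only by the spread within groups. Cox6a2 then had 0.14 in wild type and -0.07 in null, and Cox8b -0.35 in null. The interaction between genotype and this step called 0 members, where 0.01% of all genes were called higher and 0.00502% lower, with 4 higher and 0 lower at an unadjusted p under 0.05 in the limma fit, where 3.46% and 2.97% of all genes were. The smallest p was that of Atp5d (0.26 ± 0.09, adjusted p = 0.77).

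By P90 the restricted forms differed in where they stood. In wild type Cox8b reached 6.13, 5.74 and 5.81 and Cox7a1 6.1, 5.87 and 5.99, and in null 6.02, 6.18 and 5.51 and 6.12, 5.9 and 5.52. Ndufa4l2 stayed low, at 3.51, 3.1 and 3.94 in wild type and 3.58, 3.25 and 3.12 in null. Cox4i2 lay at 4.38, 4.47 and 4.35 in P90 null, below its wild-type arrays and below its own level at E18.5.

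At E18.5, the comparison between genotypes asks how loss of Igf1 bears on the set before birth, and 0 of the 89 genes were called, where 0.0602% of all genes were called higher in null and 0.0201% lower. At an unadjusted p under 0.05, 26 of the 89 were higher and 1 lower, where 6.49% of all genes were higher and 6.06% lower. Null and wild-type arrays did not overlap for 29 genes that were higher in null (32.6%, against 7.95% of all genes) and for 2 that were lower (2.25%, against 11.7%). Of the 17 members with several probe sets, 8 had probe sets of opposite sign for this difference. For the wild-type change from E18.5 to P15, 3 of the 17 did. Only the brightest probe set of each gene is counted here. Bone and cartilage markers differed as well, at 6.72 to 6.85 in E18.5 null and 7.35 to 7.43 in wild type, with all 11 genes below 0 and a median of -0.42. The neuron markers ran from 4.65 to 5.64 in null and from 4.79 to 4.97 in wild type. The part of either list in the difference was not tested. The median difference was 0.13, against -0.02 over all genes. It depended on the scaling: with array medians subtracted in place of quantile normalisation the median was -0.04, against -0.12 over all genes, and with the values as deposited it was -0.07, against -0.15. Under those scalings too it lay above the median of all genes, but the sign of the members' difference was not the same.

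Sdhc had the smallest p, with 6.67, 6.89 and 6.77 in null and 6.31, 6.22 and 6.44 in wild type at E18.5. All null arrays lay above all wild-type arrays, and the difference was 0.46 ± 0.08 (adjusted p = 0.056). Cox6a2 followed, with 5.31, 5.69 and 5.33 against 4.52, 4.81 and 4.92 (0.69 ± 0.15, adjusted p = 0.089). Atp5g3 had 7.25, 7.39 and 7.25 against 6.98, 6.94 and 7.13 (0.28 ± 0.08, adjusted p = 0.17), and Ndufs3 had 6.79, 6.95 and 6.77 against 6.63, 6.46 and 6.62 (0.26 ± 0.07, adjusted p = 0.19). In each of these 4 genes the genotypes were apart in every array. Cox8b (0.71 ± 0.26), Atp5g2 (0.66 ± 0.36) and Cox7a1 (0.65 ± 0.24) had differences of similar size to that of Cox6a2, with the largest standard errors of the set.

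The other ubiquitous complex IV genes differed unevenly at E18.5. Cox8a had 5.91, 6.33 and 6.28 in null (0.38 ± 0.12), Cox6b1 6.43, 6.71 and 6.54 (0.37 ± 0.11) and Cox7b 6.61, 6.68 and 6.38 against 6.27, 6.07 and 6.37 in wild type (0.32 ± 0.1). Cox6a1 (0.08 ± 0.1), Cox4i1 (0.1 ± 0.09), Ndufa4 (0.02 ± 0.11) and Cox7a2 (-0.1 ± 0.1) were close to 0. The assembly factors of complex I had a median of -0.09, with 2 of 7 above 0, whereas the 6 core subunits were all above 0, with a median of 0.2. All 4 complex II genes were above 0.

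Single arrays bore on the embryonic comparison. Without E18.5 null array 1, 5 members were called, Sdhc (0.51, adjusted p = 0.02), Ndufa11 (0.45, 0.019), Cox6a2 (0.76, 0.038), Cox8a (0.51, 0.04) and Cox8c (0.75, 0.04). Without E18.5 null array 2 none was called and the median was 0.07. With the lowest 20% of genes left out of the fit, Sdhc was called (adjusted p = 0.041). With the muscle mean as a covariate the median was 0.03, Sdhc stayed at 0.46 (adjusted p = 0.63), and Cox6a2 had 0.12, Cox7a1 -0.04 and Cox8b -0.25.

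**Figure D4:**
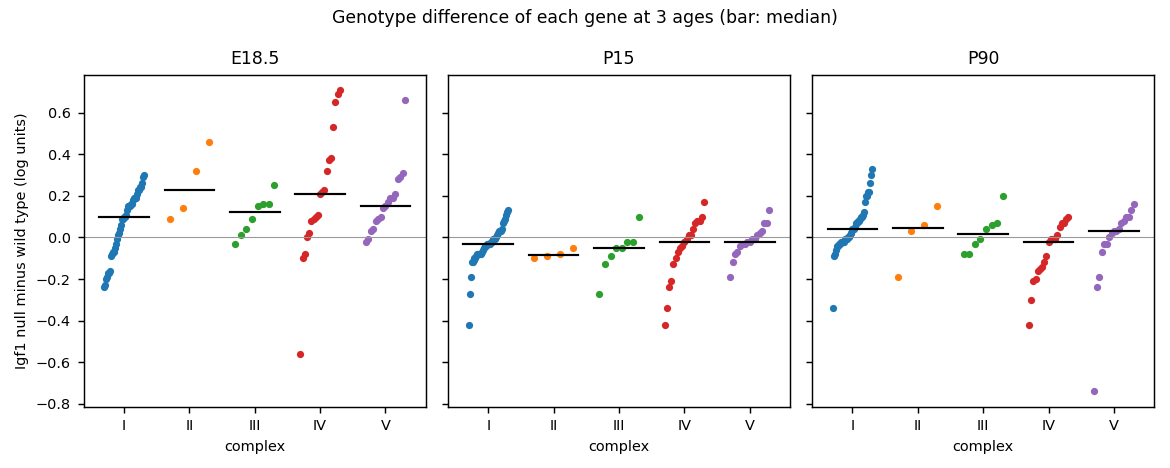
Igf1 null minus wild type (log units, y axis) of each of the 89 genes at the 3 ages, by complex (x axis), with black bars at the medians. At E18.5 the medians of all 5 complexes lie above 0, between 0.1 and 0.23, and at P15 all lie slightly below it. None of the points passed the test over all genes.

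At P15 none of the 89 genes was called between genotypes, where 0.015% of all genes were called higher and 0% lower. In the limma fit 0 were higher and 5 lower at an unadjusted p under 0.05, where 3.7% of all genes were higher and 3.27% lower. The arrays did not overlap for 11 genes that were lower in null (12.4%, against 7.75% of all genes) and for 0 that were higher, where 8.75% of all genes were. The median was -0.03, against 0.01 over all genes, and it was 0.01 without P15 null array 1 and -0.11 with array medians subtracted. Atp5d had 6.94, 6.94 and 6.97 in null and 7.24, 7.11 and 7.07 in wild type (-0.19 ± 0.07, adjusted p = 0.53). Ndufa12, an accessory subunit of complex I, had 5.49, 5.61 and 5.52 against 6.01, 6.07 and 5.8 (-0.42 ± 0.15, adjusted p = 0.53). Uqcrc1 had 6.82, 6.62 and 6.78 against 7.14, 6.93 and 6.97 (-0.27 ± 0.1), and Ndufs7 6.48, 6.46 and 6.51 against 6.78, 6.55 and 6.7 (-0.19 ± 0.07). In all 4 the null arrays lay below the wild-type arrays.

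At P90, where Xist also separated the genotypes, sex and genotype cannot be fully told apart. Of the 89 genes 0 were called, where 0.241% of all genes were called higher and 0.0552% lower, and in the limma fit 1 was higher and 3 lower at an unadjusted p under 0.05, where 6.74% and 4.36% of all genes were. Uqcr11 had 5.15, 5.24 and 5.16 in null and 4.92, 4.9 and 5.12 in wild type (0.2 ± 0.08, adjusted p = 0.36). Ndufa12 was again the lower one, with 5.88, 5.85 and 5.55 against 5.99, 6.32 and 6 (-0.34 ± 0.15, adjusted p = 0.4). Cox8c had 3.5, 3.17 and 3.54 against 3.86, 4.14 and 3.47 (-0.42 ± 0.19) and Sdhc 6.66, 6.71 and 6.67 against 6.83, 6.99 and 6.79 (-0.19 ± 0.08). The genotypes did not overlap for Uqcr11, Ndufa12 and Sdhc and overlapped for Cox8c. The median over the 89 genes was 0.02, against 0.01 over all genes, and -0.02 with the Y-linked mean as a covariate, with 0 called.

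Over the mean of the 3 ages 0 members were called between genotypes, where 0.0201% of all genes were called higher and 0.015% lower, and in the limma fit 1 was higher and 1 lower at an unadjusted p under 0.05, where 4.17% and 3.51% of all genes were. The smallest p was that of Ndufa12 (-0.25 ± 0.08, adjusted p = 0.38), followed by Ndufb11 (0.12 ± 0.05), Ndufa4l2 (-0.23 ± 0.11) and Cox4i2 (-0.1 ± 0.05). Ndufb11, an X-linked accessory subunit, had 6.64, 6.68 and 6.6 in null and 6.46, 6.23 and 6.52 in wild type at E18.5, with no overlap, and overlapping arrays at P15 and P90. With the Y-linked mean as a covariate its mean difference was 0.09 (adjusted p = 0.81). These values of Ndufb11 are from the brighter of 2 probe sets, and where each lies was not checked. The other had differences of 0.12, 0.11 and 0.08 at E18.5, P15 and P90. In all, 7 genes of the whole array were called for the mean of the 3 ages.

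**Figure D5:**
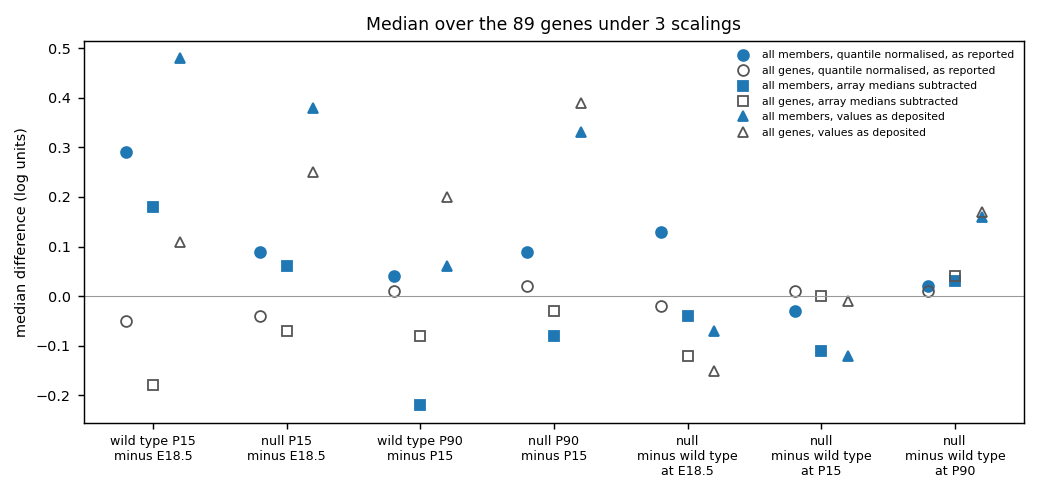
Median difference (log units, y axis) over the 89 genes (filled) and over all genes (open) in 7 comparisons (x axis), with quantile normalisation (circles), array medians subtracted (squares) and values as deposited (triangles). For the 89 genes the change from E18.5 to P15 keeps its sign under all 3, while their E18.5 genotype difference and their change from P15 to P90 do not.

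The median change of the 89 genes from E18.5 to P15 kept its direction under the 3 scalings, and its size did not. In wild type the median over the 89 genes was 0.29 with quantile normalisation, 0.18 with array medians subtracted and 0.48 as deposited, where all genes had -0.05, -0.18 and 0.11. In null it was 0.09, 0.06 and 0.38, where all genes had -0.04, -0.07 and 0.25. With array medians subtracted 8 members were called higher and 4 lower in null.

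Neighbouring pathways were read from lists of known genes, beside the shares of all genes called over this step (19.7% higher and 21.9% lower in wild type, 20.3% and 20.5% in null). Of 17 measured enzymes of the tricarboxylic acid cycle, which feeds NADH and succinate to complexes I and II, 13 rose and 2 fell from E18.5 to P15 in wild type, and 6 rose and 1 fell in null. Ogdh rose by 0.69 ± 0.07 in wild type and 0.43 ± 0.07 in null, and Mdh2 by 0.57 ± 0.07 and 0.3 ± 0.07, whereas Idh2 fell by 0.84 and 0.89. Of 14 electron carriers, transporters and channels that serve the complexes, 8 rose and 0 fell in wild type, with 0 lower at an unadjusted p under 0.05 in the limma fit, and 3 rose and 2 fell in null. They included Slc25a5, an exchanger of ADP and ATP (0.69 ± 0.1 and 0.35 ± 0.1), and Vdac1, a channel of the outer membrane (0.74 ± 0.13 and 0.52 ± 0.13). Ckmt1, the ubiquitous mitochondrial creatine kinase, rose by 1.3 ± 0.17 in wild type and 1.43 ± 0.17 in null.

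Assembly factors outside the set did not share the rise. Of 34 measured, 3 rose and 6 fell in wild type, with a median of 0, and 1 rose and 5 fell in null. Nubpl, which delivers iron-sulfur clusters to complex I, fell by 0.77 in wild type and 0.5 in null, Timmdc1 fell by 0.27 in wild type, and Cox19 rose by 0.39 ± 0.1. Of 23 regulators of mitochondrial biogenesis, 5 rose and 5 fell in wild type, near the shares of all genes, and 6 rose and 2 fell in null. The orphan receptor Esrrg rose by 1.16 ± 0.11 and 1.08 ± 0.11, and Esrra rose by 0.59 ± 0.09 in wild type. Ppargc1a, the coactivator PGC-1 alpha, rose by 0.83 ± 0.16 in null, and its relative Pprc1 fell by 0.5 and 0.66.

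Other routes of energy supply went different ways over the same step. Of 14 genes of fatty acid oxidation, 1 rose and 2 fell in wild type, whereas 1 rose and 8 fell in null. Of 16 glycolysis genes, 7 rose and 4 fell in wild type and 4 rose and 8 fell in null. Aldoc rose by 2 ± 0.11 and 2.18 ± 0.11 and Eno2 by 1.96 ± 0.16 and 1.79 ± 0.16, both forms known from nervous tissue. None of the 13 subunits that mitochondrial DNA encodes was found under its current name, but the probe sets named ND3 (complex I) and COX2 (complex IV) on the platform, looked up after other values were known, belong to that genome. ND3 had 0.23 ± 0.09 in wild type (adjusted p = 0.051) and 0.09 ± 0.09 in null, and COX2 had -0.02 ± 0.05 and -0.04 ± 0.05.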

How the data were processed

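Gene expression was measured in 18 vestibular organ samples, 3 per genotype and age. The deposited values are logs of array intensity, 1 column per array, recorded as natural log from their range, though no source states the base, and used here as plain log units. The background correction and summary method were not given in the sources used here. Deposited array medians ran from 3.88 to 4.82, so arrays were quantile normalised over 28853 probe sets. Of these, 21789 had 1 gene symbol, 1621 several and 5443 none listed. Probe sets with 1 symbol gave 19938 genes, each by its brightest probe set. Group means were fitted together by limma's lmFit and eBayes (version 3.58.1, R 4.3.3), with 12 residual and 2.98 prior degrees of freedom. P-values were adjusted by Benjamini and Hochberg's method over the whole table, and the fit was tested on simulated data. Precision is limited by the number of arrays. The labels call the arrays biological replicates without saying how many animals each holds, so a p-value reflects only the spread among these samples. Named genes were those of smallest p in each comparison, and the isoform pairs with their partners. The members and lists were chosen with earlier results of these data known. The alternatives tried were other scalings, a filter on low genes, the mean of probe sets, updated symbols, subunits only, the skeletal muscle mean, the Y-linked mean or a term for 4 arrays as covariates, a replicate block and arrays left out.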

Additional observations from a re-analysis of the deposited data

Results flagged for a closer look

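For 9 genes of the companion lists, and 0 of the 89, the change from E18.5 to P15 differed between genotypes by the interaction term of the limma fit at an adjusted p under 0.05. Of the 89 genes, 1 was higher and 19 lower at an unadjusted p under 0.05, and Cox6a2 passed without P15 null array 1. They are genes of contraction, calcium handling and energy supply in skeletal muscle, and all fell in null relative to wild type. The differences of the changes were -1.88 for Actn3, -1.71 for Casq1, -1.6 for Ckm, -1.53 for Tnnc2, -1.47 for Mylpf, -1.41 for Atp2a1, -1.37 for Tnni2, -1.26 for Acta1 and -1.16 for the muscle enolase Eno3. The skeletal muscle list as a whole ran from 6.34 to 6.88 in E18.5 null and from 5.62 to 6.01 in P15 null. In wild type its arrays ran from 5.63 to 6.12 and from 6.24 to 6.41.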

How the results depend on the processing

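With array medians subtracted, the medians over the 89 genes were -0.04 for genotype at E18.5, -0.11 at P15, 0.18 for the wild-type change from E18.5 to P15 (24 called), -0.22 for wild type from P15 to P90 (31 called) and -0.08 for null from P15 to P90 (2 called), and 12 were called in null from E18.5 to P15. As deposited, the genotype medians were -0.07 at E18.5, -0.12 at P15 and 0.16 at P90. Age medians were 0.48 and 0.38 for the first step in wild type and null, and 0.33 for the second step in null (18 called). With the muscle mean as a covariate, the genotype median at E18.5 was 0.03, the first step had 29 called in wild type and 12 in null (median 0.2), and the second step had 0 called in both, with medians of -0.06 in wild type and -0.01 in null. Leaving out the lowest 20% of genes gave 1 call at E18.5. A term for the 4 arrays gave 0 calls in wild type from P15 to P90 and 11 in null from E18.5 to P15. Leaving these arrays out, an alternative chosen after seeing the data, gave 1 (median 0.11) and 10. Single genes that changed sign were Cox6b1 (-0.29, wild type from P15 to P90, array medians subtracted), Atp5g2 (-0.27, wild type from E18.5 to P15, mean of probe sets) and, with the muscle covariate, Cox6a2 (0.08) and Cox8b (1.01) in null from E18.5 to P15 and Cox6a2 (-0.07) and Cox8b (-0.35) in null from P15 to P90. The cause was not tested.

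Leaving out 1 array gave 0 to 5 calls and medians of 0.07 to 0.18 for genotype at E18.5, 0 calls and -0.06 to 0.01 at P15, 0 calls and -0.01 to 0.05 at P90, and 0 calls and 0.02 to 0.06 over the 3 ages. It gave 41 to 49 calls and 0.26 to 0.32 for the first step in wild type, 15 to 26 and 0.04 to 0.16 in null, 2 to 7 and 0.01 to 0.07 for the second step in wild type, and 4 to 5 and 0.06 to 0.13 in null. The interaction had 0 to 1 calls for the first step and 0 for the second. Replicate numbers did not pair the samples: the correlations of same-numbered arrays over 45 pairs ran from -0.34 to 0.24, with 6 above 0.1. With the replicate number as a block, 47, 19, 4 and 5 members were called for the first step in wild type and null and the second step in wild type and null, and the null fall of Cox8c was lost (adjusted p = 0.055).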

Other observations

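With quantile normalisation, enzymes that feed the respiratory chain mostly lay on opposite sides of 0 before and after birth in the comparison of genotypes. In limma 0 were called at either age. All 14 genes of fatty acid oxidation were above 0 in null at E18.5 (median 0.12, with 2 higher and 0 lower at an unadjusted p under 0.05), and all 14 were below 0 at P15 (median -0.14, with 0 higher and 1 lower). Of the 17 genes of the tricarboxylic acid cycle, 16 were above 0 at E18.5 (median 0.14) and 15 below 0 at P15 (median -0.08). The median over all genes was -0.02 at E18.5 and 0.01 at P15. The signs of both lists under the other scalings are not given here. Under those scalings the E18.5 median of the oxidative phosphorylation genes turned from above to below 0. At E18.5 null array 2 stood highest, with a mean over the fatty acid oxidation genes of 6.28 against 6.03 and 5.96 in the other null arrays and 5.93 to 5.97 in wild type. For the tricarboxylic acid cycle it had 6.77 against 6.54 and 6.45, with 6.42 to 6.44 in wild type. This array stood apart on the third principal component and had Ucp1 at 6.47. The skeletal muscle list was higher in null at E18.5 and lower at P15, with arrays that did not overlap, and the adipocyte list was at 3.66 to 3.78 in P15 null and 3.96 to 4.37 in P15 wild type. The part of either list in these values was not tested.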
